A study of Mus musculus with 4 samples.

Results

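The 10 immunoglobulin-related genes described here were followed through 4 single-cell libraries of liver immune cells: the heavy-chain constant genes Ighm, Ighd, Igha, Ighg1, Ighg2b, Ighg2c and Ighg3, the light-chain constant genes Igkc and Iglc2, and Jchain. They were taken by symbol, as the constant genes of these chains and Jchain, with earlier results of these data known. They are 10 of the 32285 gene rows in the count matrices, and each had UMIs (unique molecular identifiers, 1 for each captured transcript molecule) in every library. CD45+ cells had been sorted by FACS with DAPI from livers of female C57BL/6 mice and measured by 10x Genomics 5′ v2 scRNA-seq. The young WT mice were 8 weeks old and untreated. The other groups were 36 weeks old, had been injected intraperitoneally on day 14 with DEN (diethylnitrosamine, a liver carcinogen; 25 mg/kg), and ate CDHFD (a choline-deficient, high-fat diet) from weaning at day 21. DEN-CDHFD–treated mice were WT, lacked miR-146a (miR-146a-/-) or lacked both miR-146a and Ccl5 (miR-146a-/- Ccl5-/-, DKO). The sources used here do not give the number of mice behind a library. Each group is 1 library, so no test between groups was possible, and every interval below is a 95% interval that covers counting error only and not the spread between mice. Where 4 values stand together without names, they are in the order young WT, DEN-CDHFD–treated WT, miR-146a-/-, DKO. Age and treatment cannot be told apart between young WT and DEN-CDHFD–treated WT mice.

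A B cell makes 1 antibody from a heavy and a light chain. Each chain is transcribed from a variable segment joined to a constant gene, and the heavy-chain constant gene sets the isotype: Ighm and Ighd encode IgM and IgD, the pair carried by naive B cells, while Ighg1, Ighg2b, Ighg2c, Ighg3 and Igha encode the IgG subclasses and IgA that are reached by class switching within the heavy-chain locus. Plasma cells secrete antibody and devote much of their RNA to it, and Jchain encodes the small joining chain that links IgM or IgA into polymers. The 5′ chemistry reads a transcript from its start, which in a rearranged chain is the variable segment.

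All positions are from the GRCm38 assembly with the GENCODE M21 annotation. The 7 heavy-chain genes lie together on the minus strand of chromosome 12, from Igha at chr12:113254830-113260236 through Ighg2c at chr12:113285325-113288932, Ighg2b at chr12:113302965-113307933, Ighg1 at chr12:113325240-113330523, Ighg3 at chr12:113356224-113361232 and Ighd at chr12:113406604-113416324 to Ighm at chr12:113418558-113422730, which is read first. Igkc is at chr6:70726435-70726966 on the plus strand, Iglc2 at chr16:19198396-19200351 and Jchain at chr5:88519809-88527891, both on the minus strand. Some of these genes are close copies, and reads from the shared stretches cannot be divided between them with certainty. Across aligned coding bases, Iglc2 was 96.5% identical to Iglc3, another lambda constant gene, and 74.8% identical to Iglc1. Ighg2b and Ighg2c were 85.6% identical and the other IgG pairs 75.4% to 77.3%, whereas Igkc and Iglc2 shared 57.9%. The sequences shown next are the 60 coding bases of each family in which its members differ most, printed 5′ to 3′ on the coding strand, with capitals at every position where any member of the family differs. Each stretch lies inside 1 exon.

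Iglc1, chr16:19061963-19062022 (minus strand): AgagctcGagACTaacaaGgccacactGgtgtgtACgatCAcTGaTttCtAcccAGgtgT
Iglc2, chr16:19198744-19198803 (minus strand): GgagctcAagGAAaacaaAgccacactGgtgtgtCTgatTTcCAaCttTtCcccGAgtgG
Iglc3, chr16:19065573-19065632 (minus strand): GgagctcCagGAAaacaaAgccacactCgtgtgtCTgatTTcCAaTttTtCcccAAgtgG
Ighg1, chr12:113329033-113329092 (minus strand): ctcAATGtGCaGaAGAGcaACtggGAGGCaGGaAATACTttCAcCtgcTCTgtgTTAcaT
Ighg2b, chr12:113306446-113306505 (minus strand): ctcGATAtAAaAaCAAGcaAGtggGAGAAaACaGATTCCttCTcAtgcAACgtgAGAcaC
Ighg2c, chr12:113287446-113287505 (minus strand): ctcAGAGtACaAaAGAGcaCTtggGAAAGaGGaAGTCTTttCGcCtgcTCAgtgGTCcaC
Ighg3, chr12:113359722-113359781 (minus strand): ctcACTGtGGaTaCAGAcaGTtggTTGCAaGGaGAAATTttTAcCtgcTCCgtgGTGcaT

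In this lambda stretch Iglc3 differed from Iglc2 at 4 positions and Iglc1 at 18; over the aligned coding sequence 303 of 314 bases of Iglc2 and Iglc3 were identical. In the IgG stretch Ighg2c differed from Ighg2b at 26 positions, Ighg1 at 23 and Ighg3 at 28. A read over this IgG stretch would separate the subclasses. The stretch lies toward the 3′ end, at coding bases 858 to 917 of 971 in Ighg1 and 894 to 953 of 1007 in Ighg2b. Whether reads of the 5′ chemistry reached it was not tested.

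After cells outside 600 to 6000 features or above 5% mitochondrial UMIs were left out, 36286 of 39121 cells remained, 7824 to 10283 in a library. The libraries held 88706063 to 103165826 UMIs, and a kept cell had a median of 6782 to 8210. Of the barcodes of a library, 3.46% to 4.19% also occurred in another library. Among cells with at least 50 Jchain UMIs, at most 1 barcode a library was found in any 1 of the others, and there it had 0 Jchain UMIs. Ccl5, which the DKO mice lack, stood at 65.4 UMIs in every 1000000 (CPM) over the kept DKO cells and at 6174 to 12544 in the other libraries.

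B cells and plasma cells were gated on transcripts outside the immunoglobulin loci and Jchain, so that the 10 genes did not choose the cells. A B-gated cell had UMIs of at least 3 of 8 B-cell markers (among them Cd79a, Cd79b, Ms4a1, Cd22, Fcmr, Pax5 and Bank1) and more of them than of any other list. The other classes named below were set by lists of 8 markers each in the same way. A plasma-gated cell had at least 4 of 8 plasma-cell markers (Tnfrsf17, Sdc1, Mzb1, Derl3, Prdm1, Eaf2, Txndc5 and Fkbp11), Mzb1 among them. It also had at least as many of these as of any other cell-type list, and at most 2 markers of plasmacytoid dendritic cells. Before these further conditions, 70, 59, 45 and 64 kept cells had at least 4 plasma-cell markers, Mzb1 among them. B-gated cells numbered 1397 in the young WT library, 824 in the DEN-CDHFD–treated WT library, 523 in the miR-146a-/- library and 754 in the DKO library, which were 13.6%, 9.89%, 6.68% and 7.65% of the kept cells. Plasma-gated cells numbered 30, 18, 13 and 45 in the same order, or 0.292%, 0.216%, 0.166% and 0.457%. The plasma-gated share was higher by 0.291 percentage points in DKO than in miR-146a-/- mice (0.126 to 0.459), while the differences of DEN-CDHFD–treated WT from young WT mice (-0.0756 points, -0.223 to 0.0771) and of miR-146a-/- from DEN-CDHFD–treated WT mice (-0.0500 points, -0.193 to 0.0922) had intervals that included 0. Tnfrsf17, which encodes the plasma-cell receptor BCMA, was at 0 in the B gate of all 4 libraries. With all deposited cells of at least 4 plasma-cell markers, whatever else they carried, these 3 differences were 0.0488, 0.320 and -0.620 points. The B-gated share was lower by 3.69 points in DEN-CDHFD–treated than in young WT mice (difference -3.69, -4.61 to -2.77), by 3.21 in miR-146a-/- than in DEN-CDHFD–treated WT mice (-3.21, -4.06 to -2.36), and higher by 0.970 points in DKO than in miR-146a-/- mice (0.203 to 1.73). The last of these turned to -1.37 points once cells with 2 or more Cd3 UMIs were left out of all cells. The gates were not pure in their markers, since 5.84% to 10.3% of B-gated cells carried 2 or more UMIs of the T-cell genes Cd3d, Cd3e and Cd3g, and so did 4 of 30, 6 of 18, 7 of 13 and 7 of 45 plasma-gated cells.

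Jchain, Ighm and Igkc were many times higher in plasma-gated than in B-gated cells. Jchain reached 34848, 33813, 33556 and 44715 CPM in the plasma-gated cells of young WT, DEN-CDHFD–treated WT, then miR-146a-/- and then DKO mice, and 223, 174, 63.0 and 83.9 CPM in the B-gated cells. Ighm stood at 16595, 15409, 18666 and 19019 CPM in plasma-gated and at 715, 899, 1034 and 879 CPM in B-gated cells. Igkc stood at 20094, 16897, 15085 and 16186 CPM against 736, 824, 931 and 862 CPM. Ighd went the other way, with 243, 193, 270 and 284 CPM in B-gated cells and at most 1.99 CPM in plasma-gated cells. Iglc2 differed less, with 2771, 1574, 1624 and 2082 CPM in plasma-gated and 1057, 925, 1088 and 994 CPM in B-gated cells. The switched genes varied by library, as for Ighg2b, which stood at 4880, 34.9, 5789 and 2153 CPM in plasma-gated and at 20.9, 50.1, 69.9 and 46.5 CPM in B-gated cells. Immunoglobulin genes and Jchain together took a median of 61.1%, 47.2%, 60.0% and 59.2% of all UMIs of a plasma-gated cell and 1.53%, 1.40%, 1.68% and 1.60% of those of a B-gated cell.

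**Figure D1:**
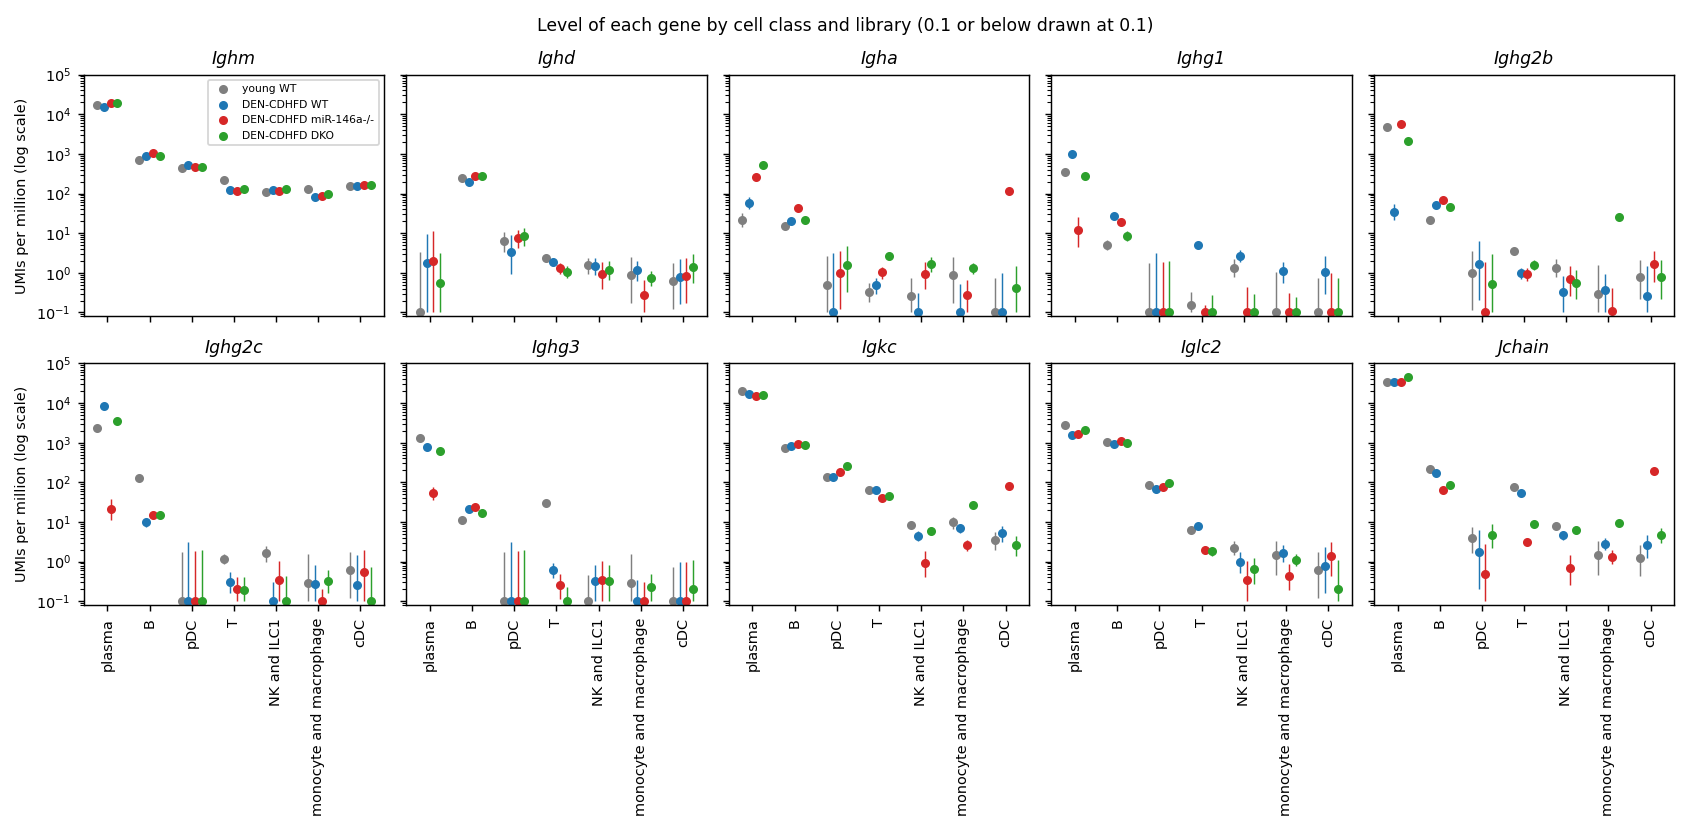
CPM (log axis) of each of the 10 genes in 7 cell classes, 1 point for each library, with bars for the 95% counting interval and values of 0.1 or below drawn at 0.1. Jchain is at 33556 to 44715 in plasma-gated cells and Ighd is highest in B-gated cells, while Ighm does not fall to the floor in any class shown.

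Naive B-cell isotypes were close between libraries. On the log2 scale the summed Ighm level of B-gated cells differed by 0.33 (0.28 to 0.38) between DEN-CDHFD–treated and young WT mice, by 0.20 (0.15 to 0.26) between miR-146a-/- and DEN-CDHFD–treated WT mice and by -0.23 (-0.29 to -0.18) between DKO and miR-146a-/- mice. For Ighd the same differences were -0.33 (-0.43 to -0.24), 0.48 (0.37 to 0.59) and 0.07 (-0.03 to 0.18). The kappa gene Igkc differed by 0.16, 0.18 and -0.11 and the lambda gene Iglc2 by -0.19, 0.23 and -0.13. All of these are well within 2-fold.

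Among genes with at least 50 CPM in B-gated cells of either library compared, few of any kind passed 2-fold. Between DEN-CDHFD–treated and young WT mice 0.742% of 3369 genes were higher by 2-fold or more and 0.445% were lower. Of the 7 members tested 1 was higher (Ighg2b) and 1 lower (Ighg2c), and each passed 50 CPM only in the library where it stood higher. Between miR-146a-/- and DEN-CDHFD–treated WT mice 1.11% of 3432 genes were higher and 1.95% lower, and of 6 members 0 were higher and 1 was lower (Jchain). Between DKO and miR-146a-/- mice 0.667% of 3300 genes were higher and 0.848% lower, with 0 of 6 members in either direction. The members' median log2 differences were -0.19, 0.22 and -0.12 in these comparisons, beside 0.03, -0.01 and -0.03 over all genes tested.

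Of the members past 2-fold in B-gated cells, Ighg2b moved little without its highest cells, and the others moved more. Ighg2b, an IgG subclass gene, stood at 20.9 CPM in young WT, 50.1 in DEN-CDHFD–treated WT mice, 69.9 in the miR-146a-/- library and 46.5 in the DKO library. Its log2 difference between DEN-CDHFD–treated and young WT mice was 1.26 (1.02 to 1.51), and 1.27 with the highest cell of each library left out. Ighg2b stood at 42.5 CPM in DEN-CDHFD–treated WT mice without that cell, below the 50 CPM limit. Its call therefore rests on a limit passed only in the library where it was higher. Ighg2c, another IgG subclass gene, stood at 126, 9.78, 15.3 and 15.3 CPM, and 1169 of its 1288 UMIs in young WT B-gated cells lay in 1 cell. Without the highest cell of each library its difference between DEN-CDHFD–treated and young WT mice moved from -3.68 to -0.61. That cell carried 7 of 8 plasma-cell markers along with all 8 B-cell markers and had 1586 Jchain UMIs. Jchain in B-gated cells stood at 67.4, 140, 4.98 and 49.5 CPM without the highest cell of each library, so that the difference between DEN-CDHFD–treated and young WT mice turned from -0.36 to 1.05 and that between miR-146a-/- and DEN-CDHFD–treated WT mice moved from -1.46 (-1.65 to -1.28) to -4.78. The highest cell held 69.7%, 19.8%, 92.1% and 41.0% of the B-gated Jchain UMIs.

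The remaining switched genes were too low in B-gated cells for the 50 CPM limit. Igha stood at 14.9 (152 UMIs), 20.2 (149), 43.3 (209) and 21.5 CPM (135) in young WT, DEN-CDHFD–treated WT, then miR-146a-/- and then DKO mice. It was highest in the miR-146a-/- library, with log2 differences of 1.10 (0.79 to 1.41) from DEN-CDHFD–treated WT and of -1.01 (-1.33 to -0.69) from miR-146a-/- to DKO mice, which were 1.04 and -1.01 without the highest cell. Ighg1 stood at 5.0, 26.5, 19.3 and 8.44 CPM. Its difference between DEN-CDHFD–treated and young WT mice was 2.40 (1.95 to 2.88). Ighg3 stood at 11.0, 21.5, 23.8 and 17.2 CPM. Each of Igha, Ighg1, Ighg2b and Ighg3 was lowest in the young WT library, whereas Ighg2c was highest there, at 126 CPM. Without the highest cell of each library Ighg2c stood at 11.7, 7.61, 13.3 and 12.1 CPM. The share of all genes lowest in young WT mice was not counted. Ighe, the IgE gene, gave 14 UMIs in the kept cells of the DEN-CDHFD–treated WT library and 2 or 3 in each of the others.

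An isotype was assigned to a cell when its leading heavy-chain gene had at least 3 UMIs and more than any other. Of B-gated cells, 1057 of 1397, 653 of 824, 472 of 523 and 648 of 754 were assigned, in the order young WT, DEN-CDHFD–treated WT, then miR-146a-/- and then DKO. A switched gene led in 27, 29, 33 and 27 of them, which is 2.55% (1.69% to 3.69%), 4.44% (2.99% to 6.32%), 6.99% (4.86% to 9.68%) and 4.17% (2.76% to 6.00%). The share was higher by 1.89 points in DEN-CDHFD–treated than in young WT mice (0.136 to 3.91) and lower by 2.82 points in DKO than in miR-146a-/- mice (difference -2.82, -5.78 to -0.137). Between miR-146a-/- and DEN-CDHFD–treated WT mice it differed by 2.55 points (-0.162 to 5.53). With every cell thinned to 2000 UMIs the shares were 1.67%, 3.10%, 4.26% and 2.53%, in the same order of libraries, with 41, 33, 2 and 12 shallower cells left out. With at least 200 features and no upper limit they were 3.43%, 8.05%, 6.92% and 4.87%, so that DEN-CDHFD–treated WT mice then had the highest share and the differences became 4.62 points (DEN-CDHFD–treated minus young WT) and -1.13 points (miR-146a-/- minus DEN-CDHFD–treated WT).

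The isotypes behind these shares were mixed. In young WT mice Ighg2c led in 10 B-gated cells, Ighg1 in 5, Ighg2b in 5, Ighg3 in 4 and Igha in 3. In DEN-CDHFD–treated WT mice Ighg1 led in 11 and Ighg2b in 10, followed by Ighg3 in 4, Ighg2c in 3 and Igha in 1. Ighg2b was the most frequent switched leader of the miR-146a-/- library, with 16 cells, ahead of Ighg1 and Ighg2c with 6 each, Ighg3 with 4 and Igha with 1. In DKO mice Ighg2b led in 10 cells, Ighg3 in 7, Ighg2c in 5, Ighg1 in 3 and Igha in 2. No switched isotype led in more than 16 cells of a library, and Igha led in 7 of 2830 assigned B-gated cells in all.

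Cells led by a switched gene differed from the other B-gated cells in some germinal-center and mature B-cell genes and not in others, and most of those named here were chosen after their values were seen. Ighd was found in 2 of 27, 3 of 29, 4 of 33 and 1 of 27 of them, against 75.7%, 69.9%, 79.3% and 82.8% of cells led by Ighm or Ighd. Ighd was one of the genes compared when the leader was assigned, so its low share is given as a description. Fas, a death receptor found on germinal-center B cells, was higher in switched-led cells in 4 of 4 libraries, at 130, 199, 93.2 and 165 CPM against 25.9, 40.1, 42.4 and 27.2. Mef2b, a germinal-center transcription factor, was detected in 14, 21, 2 and 5 switched-led cells and stood at 295, 604, 6.99 and 262 CPM against 35.8, 36.5, 8.29 and 17.7. Bcl6, a germinal-center repressor, stood at 96.6, 104, 21.0 and 46.3 CPM against 68.2, 55.3, 40 and 48.4, higher in switched-led cells in 2 of 4 libraries and lower in the other two. Mef2b was lowest in the switched-led cells of miR-146a-/- mice, while Fas was above its level in the other cells there too.

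Several surface genes of mature B cells were lower in switched-led cells of all 4 libraries. Cr2, the complement receptor CD21, stood at 26.3, 4.97, 18.6 and 7.71 CPM in switched-led and at 174, 137, 130 and 147 CPM in Ighm- or Ighd-led cells. Fcer2a, the low-affinity IgE receptor CD23, stood at 94.8, 66.2, 55.9 and 23.1 against 405, 279, 175 and 252 CPM. Fcmr, the receptor for IgM, stood at 218, 142, 389 and 386 against 650, 575, 694 and 698 CPM. Cd79b, the signaling partner of the surface immunoglobulin, stood at 1087, 816, 1132 and 1067 against 1589, 1525, 1729 and 1685 CPM. Of the 12 genes listed for B-cell receptor signaling, 6 (Blk, Blnk, Btk, Cd79b, Cr2 and Lyn) were lower in switched-led cells in 4 of 4 libraries and 0 were higher in 4 of 4, where of all 3527 genes tested in B-gated cells 22.5% were lower and 21.0% higher in 4 of 4. Cd79a, the other signaling partner, was lower in 3 libraries but higher in switched-led cells of miR-146a-/- mice (3698 against 3394 CPM), as was Ccr7, a homing receptor (303 against 289 CPM). Switched-led cells were also deeper, with a median of 19345, 20076, 11044 and 12700 UMIs a cell against 6018, 7682.5, 7584 and 7117. The part of depth in these differences was not tested.

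Other B-cell gene lists gave the setting of the members in all B-gated cells, and genes past 2-fold are named after their values were seen. All 12 B-cell receptor signaling genes were tested in each comparison and 0 passed 2-fold, with median log2 differences of -0.02, 0.21 and -0.05. Of the 9 switching and germinal-center genes 4, 4 and 0 were tested, and 1 passed 2-fold, Mef2b. It stood at 51.4, 81.8, 7.67 and 31.7 CPM and differed by -3.40 between miR-146a-/- and DEN-CDHFD–treated WT mice. In that comparison Mef2b passed 50 CPM only in the DEN-CDHFD–treated WT library, where it was higher. The B-1 list held 3 tested genes in the comparison of miR-146a-/- with DEN-CDHFD–treated WT mice, of which Spn, the sialoglycoprotein CD43, differed by 1.17 and Zbtb32, a zinc-finger repressor, by 1.12. Zbtb32 was the 1 tested gene of that list past 2-fold from miR-146a-/- to DKO mice, at -1.55. In both comparisons the 3 genes passed 50 CPM only in the miR-146a-/- library, where they were highest, so their calls are given as a description. Of the untested genes of that list, Cd9, Bhlhe41 and Cd5 differed by 0.50, 0.77 and -0.04 in the first comparison. Over all genes tested 1.11% were higher in the first comparison and 0.848% lower in the second. Of 4 tested genes of the age-associated B-cell list, Zeb2, a transcription factor, stood at 117, 182, 368 and 246 CPM and passed 2-fold between miR-146a-/- and DEN-CDHFD–treated WT mice (1.01). For the plasma-cell and secretion list 7 of 12 genes were tested in each comparison and 0 passed 2-fold. Summed markers of monocytes and macrophages in B-gated cells stood at 101 CPM in young WT and 290, 318 and 292 CPM in the treated libraries. Those of NK cells and ILC1 stood at 186, 238, 118 and 284 CPM and those of T cells at 312, 327, 309 and 198 CPM. The part of these other cell types in the differences was not tested.

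Plasma-gated cells were nearly all of 1 isotype each. All 106 had an assigned isotype, and in 98 the leading gene held more than 90% of the heavy-chain constant UMIs. Ighm led in 20 of 30 cells of young WT, 10 of 18 of DEN-CDHFD–treated WT, 10 of 13 of miR-146a-/- and 35 of 45 of DKO mice. Ighg2c led in 3, 6, 0 and 2 cells, Ighg2b in 5, 0, 2 and 5, Ighg1 in 1, 1, 0 and 1, Ighg3 in 1, 1, 0 and 1 and Igha in 0, 0, 1 and 1. The switched shares were 33.3% (17.3% to 52.8%), 44.4% (21.5% to 69.2%), 23.1% (5.04% to 53.8%) and 22.2% (11.2% to 37.1%). With so few cells the intervals of the 3 differences between libraries were wide and all included 0, at 11.1 points (-15.6 to 37.1), -21.4 points (-47.8 to 12.3) and -0.855 points (-29.7 to 19.6). Ighd was found in 3 of the 106 cells, with 1 UMI at most.

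**Figure D2:**
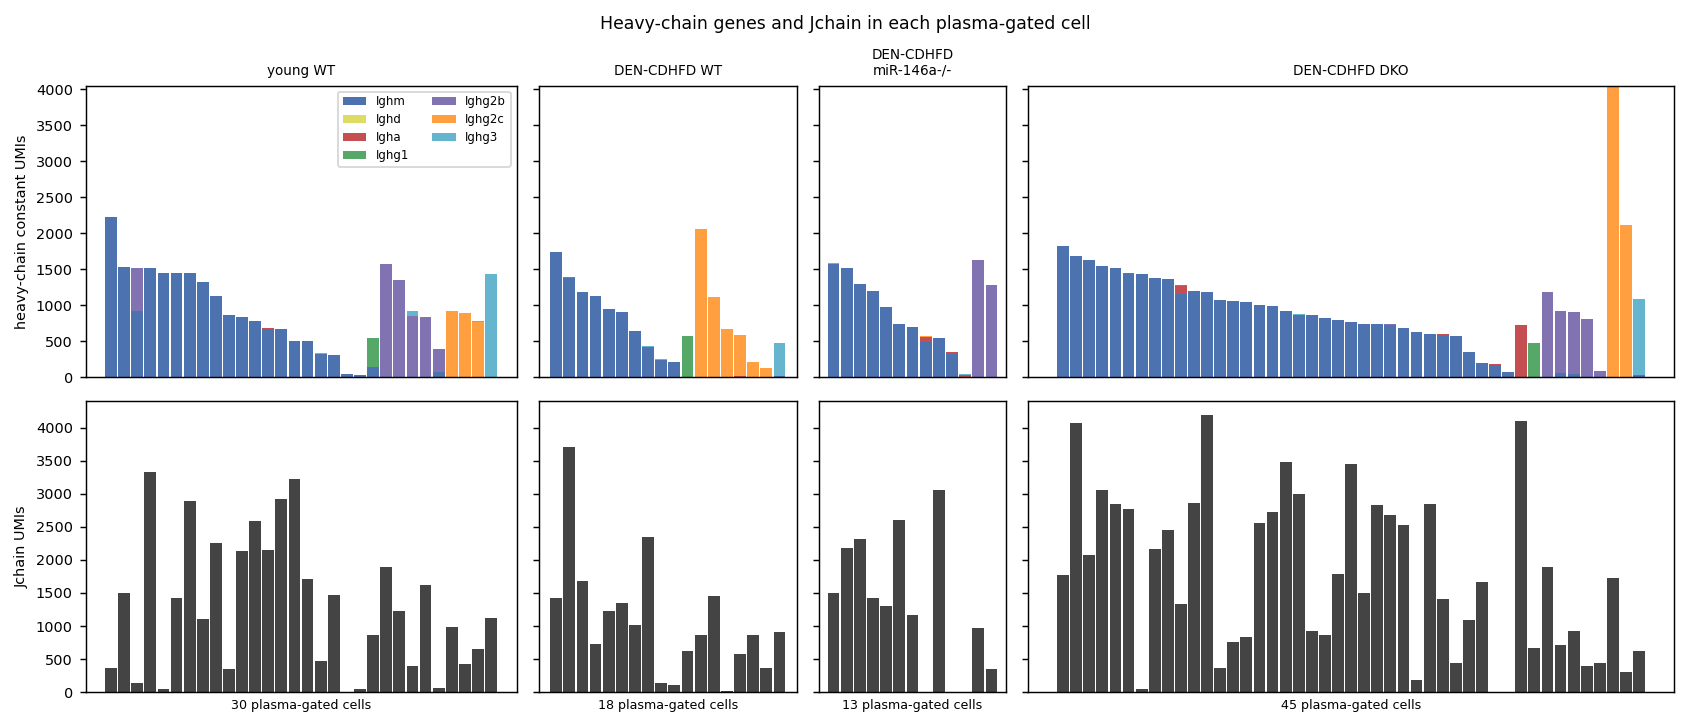
Heavy-chain constant UMIs by gene (top, stacked bars) and Jchain UMIs (bottom) in each of the 106 plasma-gated cells, 1 bar for each cell, in panels by library and ordered by leading gene. Most bars have 1 color, Ighm leads in 75 of the cells, and the tallest bar is a DKO cell with 4041 Ighg2c UMIs.

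In the plasma-gated cells Ighm had a median of 506, 229, 700 and 773 UMIs a cell in young WT, DEN-CDHFD–treated WT, then miR-146a-/- and then DKO mice and reached 2224, 1745, 1579 and 1817. Igkc had medians of 647.5, 383.5, 607 and 588 UMIs and reached 4373, 2115, 1366 and 1609. Iglc2 had medians of 91, 50, 59 and 58. These ranges overlapped widely between the libraries. Variable segments gave many more UMIs than the constant genes, with a median of 4346, 2873, 7161 and 6060 Ighv UMIs and of 14984.5, 8320.5, 12734 and 12166 Igkv UMIs a cell.

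Jchain in plasma-gated cells ranged from 4 to 3324 UMIs a cell in young WT mice (median 1177), from 11 to 3709 in DEN-CDHFD–treated WT mice (median 885.5), from 0 to 3062 in miR-146a-/- mice (median 1301) and from 0 to 4198 in DKO mice (median 1720). The range of each library covered most of the others. Jchain differed by isotype within every library. The median was 1489.5 UMIs in Ighm-led and 925.5 in IgG-led cells of young WT mice, 1282.5 and 747 in DEN-CDHFD–treated WT, 1458 and 660.5 in miR-146a-/- and 2068 and 668 in DKO mice. Over the 4 libraries the 75 Ighm-led cells ranged from 0 to 4198 UMIs with a median of 1503, and the 29 IgG-led cells from 11 to 1898 with a median of 709, so that the groups overlapped while the Ighm-led median was above the IgG-led median in 4 of 4 libraries. The libraries contribute unequal numbers of Ighm-led (20, 10, 10 and 35) and of IgG-led cells (10, 8, 2 and 9). Relative to all UMIs of the cell the Ighm-led and IgG-led medians were 36742 and 26427 CPM in young WT, 35101 and 18077 in DEN-CDHFD–treated WT, 33716 and 13182 in miR-146a-/- and 55149 and 19041 in DKO mice. Of the 2 Igha-led cells, that of the DKO library had 4097 Jchain UMIs beside 720 of Igha, and that of the miR-146a-/- library had 0 beside 27. In all, 10 of 106 plasma-gated cells had fewer than 50 Jchain UMIs, and in 5 the immunoglobulin genes and Jchain made up less than 20% of the UMIs.

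Cells high in Jchain were also counted without the marker gate, and whether they secreted antibody was not tested. Cells with at least 50 Jchain UMIs numbered 36, 24, 12 and 47 among kept cells, of which 27, 17, 10 and 42 were plasma-gated. Among all deposited cells they numbered 52, 51, 13 and 49, or 4.73 (3.54 to 6.20), 5.59 (4.17 to 7.35), 1.55 (0.825 to 2.65) and 4.61 (3.41 to 6.09) for every 1000 cells. The miR-146a-/- library was lowest here, and its interval did not overlap those of the others. Among kept cells the rates were 3.50 (2.45 to 4.84), 2.88 (1.85 to 4.28), 1.53 (0.793 to 2.68) and 4.77 (3.51 to 6.34) for every 1000, and the miR-146a-/- interval then overlapped those of young WT and DEN-CDHFD–treated WT mice. The limits on cells bore unevenly on the libraries: 27 of the 51 such cells of DEN-CDHFD–treated WT mice and 16 of the 52 of young WT mice lay outside them, against 1 of 13 and 2 of 49. All 27 and 15 of the 16 had more than 6000 features. Of these 27 and 16 cells, 6 and 5 also had at least 5 of 8 markers of T cells or of monocytes and macrophages. Among kept cells with at least 50 Jchain UMIs, 5 of 36, 6 of 24, 5 of 12 and 8 of 47 had such markers too.

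The variable segments of the plasma-gated cells were diverse, with some pairs recurring within a library. As the leading segment, 45 Ighv and 46 light-chain segments were found in the 106 cells. Igkv3-2 was the most frequent, leading in 19 cells, 13 of them in young WT, 3 in DEN-CDHFD–treated WT mice, 0 in the miR-146a-/- library and 3 in the DKO library. In B-gated cells with a leading kappa segment its share was 3.79%, 4.63%, 1.83% and 2.41%. Ighv1-53 led the heavy chain in 12 cells (8, 1, 1 and 2) and was paired with Igkv3-2 in 5 cells of young WT mice, whose constant genes were Ighm or Ighg2c. Ighv1-72 was paired with Igkv3-2 in 3 cells of young WT mice, all Ighm-led. Ighv5-4 was found in 6 cells, all of the DKO library and Ighm-led, paired with Igkv19-93 in 3 and with Igkv4-61 in the other 3. The pair of Ighv1-12 and Igkv3-7 occurred in 1 cell of miR-146a-/- and 2 of DKO mice. The highest Ighg2b cell of young WT mice (plasma-gated, 1571 UMIs) and the highest Ighg2c cell (the B-gated cell with 1169 UMIs) were both led by Ighv8-12 and Iglv2. Segment counts cannot show whether cells share a rearrangement, since joined sequences were not analysed here.

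How far a gene's UMIs sat in a few cells set the members apart. Of the members, Ighd had the smallest share of its UMIs in its 10 highest cells, at 3.78%, 6.10%, 7.86% and 5.91%. For Ighd 50% of the UMIs took 293, 153, 113 and 170 cells. Iglc2 had 15.7%, 8.57%, 13.3% and 17.9% in its 10 highest cells, and 50% took 196, 170, 108 and 92 cells. By that second measure Iglc2 was more evenly spread than Ighd in DEN-CDHFD–treated WT mice. The IgG genes were more concentrated than Ighd in every library, though not always more than Jchain or Igha. The 10 highest cells held 98.3%, 80.7%, 98.0% and 99.3% of Ighg1, 96.4%, 41.4%, 91.7% and 92.3% of Ighg2b, 96.2%, 98.8%, 63.8% and 99.2% of Ighg2c and 97.2%, 82.3%, 62.8% and 95.4% of Ighg3. Totals differed widely behind these shares. Ighg2b gave 457 UMIs in DEN-CDHFD–treated WT mice and 3311 to 5919 in the others, and Ighg2c gave 105 UMIs in miR-146a-/- mice and 3967 to 6281 in the others. For Jchain the shares were 53.9%, 73.7%, 95.4% and 41.8%, with 50% of the UMIs in 10, 6, 4 and 13 cells. For Ighm they were 33.4%, 39.2%, 40.2% and 29.3%.

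**Figure D3:**
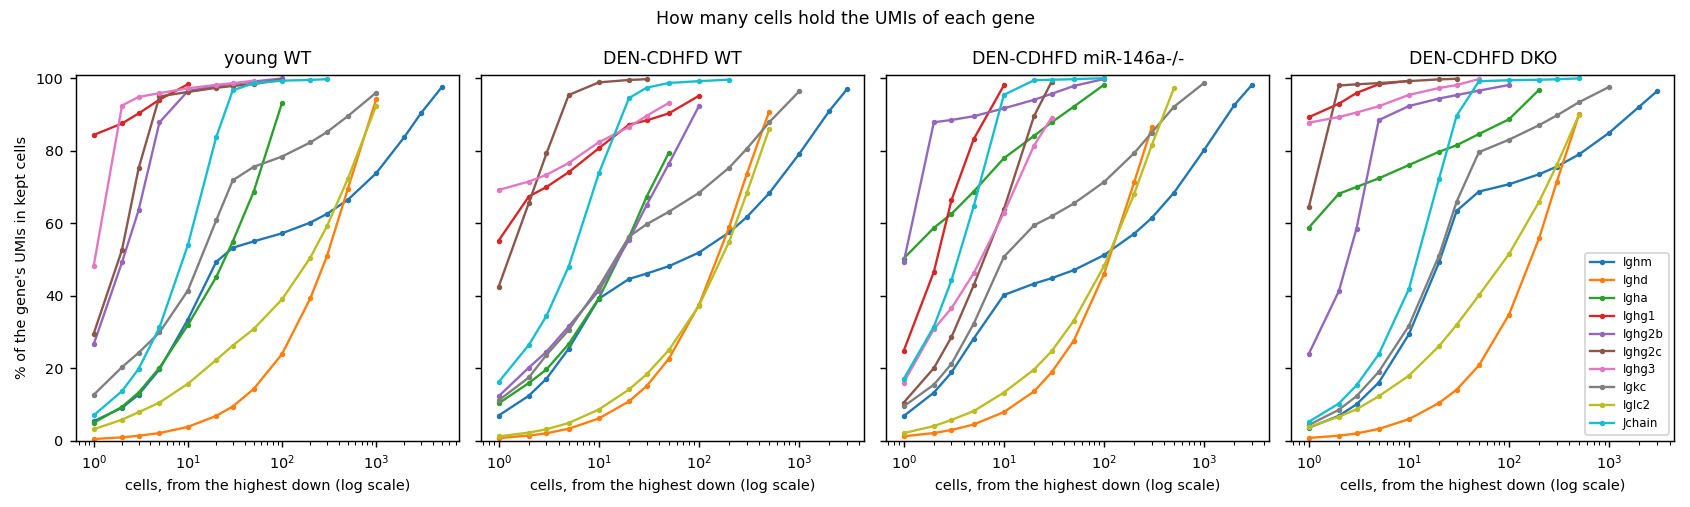
Cumulative percentage of each gene's UMIs (kept cells) against the number of cells, counted from the highest down on a log axis, in 1 panel for each library. Curves of the IgG genes start high in most panels, and the Ighd curve stays lowest at 10 cells, at 3.78% to 7.86%.

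In some libraries 1 cell held more than 50% of a switched gene's UMIs, whereas the highest cell held 4.90% of Igha in young WT and 10.5% of Ighg2c in miR-146a-/- mice. A DKO plasma-gated cell held 4041 of the 6281 Ighg2c UMIs of its library (64.3%). In DKO mice 720 of 1226 Igha UMIs (58.7%) came from 1 plasma-gated cell with Ighv1-52 and Igkv12-46. In miR-146a-/- mice 416 of 828 Igha UMIs (50.2%) came from 1 cell that had fallen into the cDC class, with 5 of 8 plasma-cell and 6 of 8 cDC markers, 689 Jchain UMIs and Ighv6-3 with Igkv8-30. The total Igha UMIs of the kept cells, 204 in young WT, 214 in DEN-CDHFD–treated WT mice, 828 in the miR-146a-/- library and 1226 in the DKO library, were 2.43, 2.54, 10.4 and 12.7 CPM, and 1.66, 1.54, 2.30 and 3.04 CPM without the 10 highest cells of each library. The highest library was thus less than 2-fold above the lowest outside those cells. Ighg2b totals were 70.6, 5.43, 41.7 and 51.1 CPM, and 2.52, 3.18, 3.47 and 3.94 without the 10 highest cells.

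Light-chain calls depended on which part of the transcript was read. Compared by constant genes, with at least 3 UMIs of either, Iglc2 exceeded Igkc in 66.1% (63.3% to 68.9%), 58.9% (55.2% to 62.6%), 62.4% (57.9% to 66.8%) and 57.7% (53.9% to 61.5%) of B-gated cells of young WT, DEN-CDHFD–treated WT, then miR-146a-/- and then DKO mice. With Iglc1 and Iglc3 added to Iglc2 the lambda share was 89.7%, 83.8%, 90.4% and 84.5%. Compared by variable segments, Iglv exceeded Igkv in 4.85% (3.76% to 6.14%), 6.09% (4.53% to 8.00%), 7.56% (5.43% to 10.2%) and 7.13% (5.39% to 9.23%). The call by constant genes put the lambda share of DEN-CDHFD–treated WT mice 7.20 points below that of young WT mice (-11.8 to -2.65), and the call by variable segments put it 1.24 points above (-0.705 to 3.40). For the other comparisons the intervals of the difference included 0 by either of these calls. With Iglc1 and Iglc3 added to Iglc2, the intervals of the shares were 87.9% to 91.4%, 81.0% to 86.4%, 87.5% to 92.9% and 81.7% to 87.1%. By that call the miR-146a-/- interval overlapped neither that of DEN-CDHFD–treated WT nor that of DKO mice.

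Iglc2 was found in nearly every B-gated cell, also in those whose variable segments were kappa. Their coding sequences are of near-equal length, 315 bases for Iglc2 and 320 for Igkc. In such cells Iglc2 averaged 7.77, 8.59, 10.3 and 8.47 UMIs and Igkc 5.76, 8.08, 9.27 and 7.58, and 93.6% to 97.7% of them had an Iglc2 UMI. In cells with lambda segments Iglc2 averaged 12.7, 9.31, 8.15 and 7.19 UMIs and Igkc 1.85, 1.5, 1.74 and 3.25. The Iglc2 mean of 12.7 in young WT mice includes 1 cell with 398 UMIs. The medians of Iglc2 were 6, 6, 8 and 6 UMIs in kappa and 5, 8, 8 and 6 in lambda cells, and those of Igkc were 4, 6, 6 and 6 in kappa and 0 in lambda cells of all 4 libraries. In plasma-gated cells the calls were closer to each other, with Iglc2 above Igkc in 1 of 30, 0 of 18, 2 of 13 and 1 of 45 cells and Iglv above Igkv in 1, 0, 1 and 1, or 3 lambda and 103 kappa cells in all. The count of 0 of 18 allows a share of up to 18.5% (upper bound of the exact interval).

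**Figure D4:**
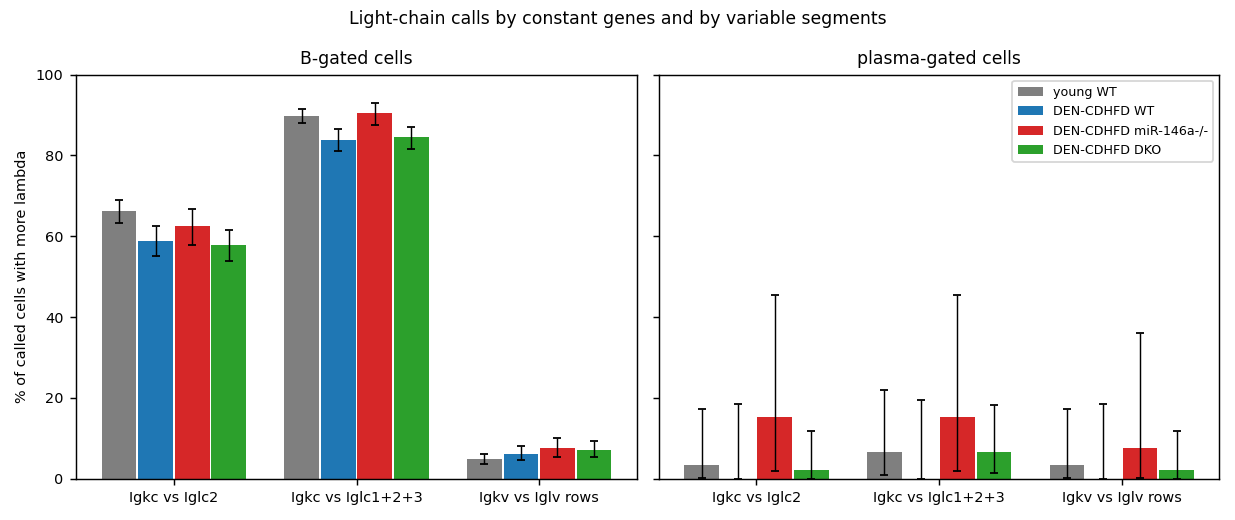
Percentage of called cells with more lambda than kappa UMIs, by 3 ways of calling, in B-gated (left) and plasma-gated cells (right), with bars for each library and 95% exact binomial intervals. In B-gated cells the call by Igkc and Iglc2 gives 57.7% to 66.1% and the call by variable segments 4.85% to 7.56%.

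Outside the B and plasma gates, Ighm was found in every class. It stood at 432, 530, 463 and 471 CPM in plasmacytoid dendritic cells (pDC), at 159, 152, 161 and 160 CPM in conventional dendritic cells (cDC), at 111, 122, 116 and 127 CPM in NK cells and ILC1, at 127, 82.2, 89.0 and 94.6 CPM in monocytes and macrophages and at 213, 126, 112 and 128 CPM in T cells. Cells that had 0 UMIs of every B-cell marker and fewer than 3 plasma-cell markers gave 429 to 561 CPM in pDC, 151 to 166 in cDC, 109 to 126 in NK cells and ILC1 and 77.8 to 173 in T cells. An Ighm UMI was found in 96.3%, 100%, 99.3% and 100% of pDC and in 43.7%, 50.5%, 53.4% and 52.7% of NK cells and ILC1, beside 93.6%, 91.9%, 93.7% and 94.8% of B-gated cells. Thinned to 2000 UMIs a cell, these shares were 55.5%, 59.6%, 56.2% and 61.0% in pDC, 18.0%, 19.6%, 18.7% and 21.1% in NK cells and ILC1 and 71.8%, 76.4%, 79.5% and 79.1% in B-gated cells. In thinning, 43, 55, 14 and 26 NK cells and ILC1 and 0, 0, 1 and 0 pDC were too shallow. The median depth was 12417.5 to 13942 UMIs in pDC, 6509 to 8714 in NK cells and ILC1 and 5734 to 7334 in B-gated cells. The pDC share was above that of NK cells and ILC1 in all 4 libraries at equal depth.

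In NK cells and ILC1 and in pDC this Ighm came with few heavy-chain variable segments. In B-gated cells there were 5.15, 3.10, 3.20 and 3.28 Ighv UMIs for each Ighm UMI and in plasma-gated cells 8.02, 8.62, 8.61 and 7.25. In NK cells and ILC1 the ratio was 0.266, 0.179, 0.0331 and 0.0775, in pDC 0.0941, 0.0145, 0.0289 and 0.0113, and in cDC 0.0419, 0.0396, 7.37 and 0.0518. The cDC value of 7.37 came with the miR-146a-/- cell of 416 Igha UMIs, and without cells with B-cell or 3 plasma-cell markers it was 0.0216. In T cells the ratio was 1.29, 0.610, 0.241 and 0.133, and 0.109, 0.130, 0.0793 and 0.118 without cells with B-cell or 3 plasma-cell markers. Cells left without a class had ratios of 4.15, 0.677, 0.842 and 4.58, and of 0.453, 0.162, 0.0374 and 0.109 without those markers. In neutrophils the ratio was 0.0833, 0.143, 1.04 and 0.3. For Igkc the picture was different, with 11.3, 9.69, 10.5 and 10.8 Igkv UMIs for each Igkc UMI in B-gated cells and 8.00, 7.53, 11.9 and 6.09 in NK cells and ILC1, 12.2, 6.73, 1.36 and 1.40 in T cells, 3.02, 0.568, 0.620 and 1.04 in T cells without those markers, and 0.591, 0.327, 0.186 and 0.136 in pDC.

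**Figure D5:**
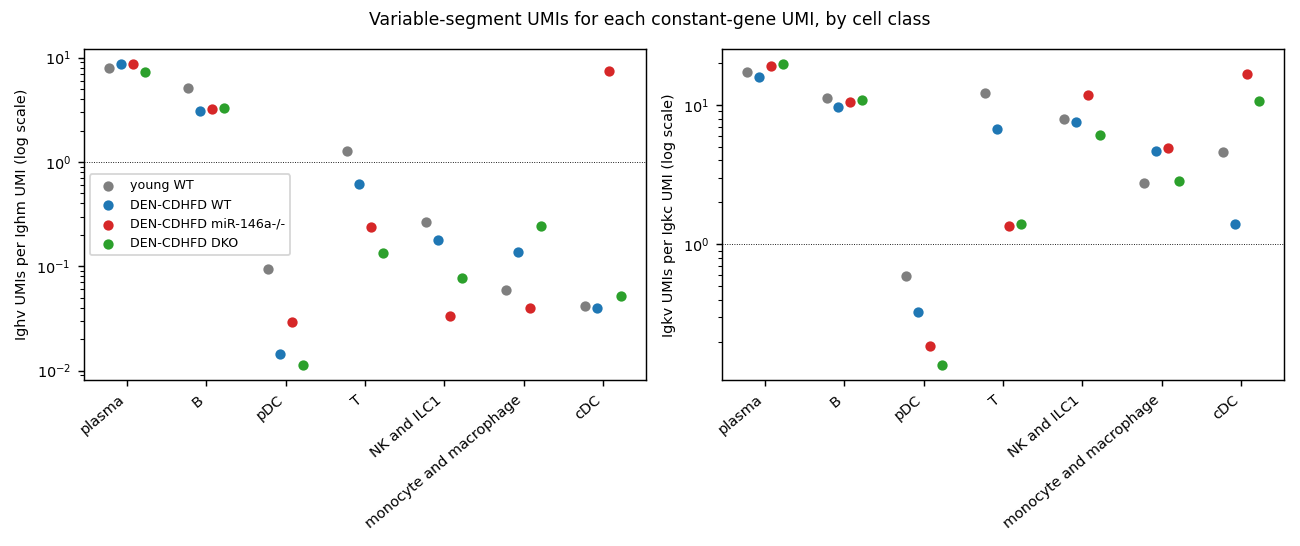
Ighv UMIs for each Ighm UMI (left) and Igkv UMIs for each Igkc UMI (right) in 7 cell classes, log axes, 1 point for each library, with a dotted line at 1. The Ighm ratio is 3.10 or more in B- and plasma-gated cells and at most 0.266 in NK cells and ILC1 and 0.0941 in pDC.

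Plasmacytoid dendritic cells also carried light-chain constant genes. Iglc3 stood at 872, 766, 889 and 814 CPM there, close to the 793, 654, 826 and 774 CPM of B-gated cells, and it was found in 92.7%, 92.1%, 93.8% and 93.4% of pDC with at most 45 UMIs in 1 cell. Iglc2, which is nearly identical to Iglc3, stood at 86.6, 68.5, 74.9 and 95 CPM in pDC and at 1057, 925, 1088 and 994 CPM in B-gated cells. In pDC there were 10.1, 11.2, 11.9 and 8.57 Iglc3 UMIs for each Iglc2 UMI, against 0.750, 0.707, 0.760 and 0.779 in B-gated cells. Igkc stood at 138, 136, 179 and 262 CPM in pDC. The 2 lambda genes were thus counted at different ratios in the 2 classes in every library.

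Jchain and the switched genes were low in other cells. In cells without B-cell markers and with fewer than 3 plasma-cell markers, Jchain stood at 4.79, 2.90, 2.14 and 8.09 CPM in T cells and at 7.62, 4.28, 0.545 and 6.12 CPM in NK cells and ILC1. In the same T cells and NK cells and ILC1 the switched genes were at most 2.66 CPM, the value of Igha in DKO T cells. A Jchain UMI was found in 4.19%, 3.03%, 0.647% and 4.95% of NK cells and ILC1, which should lack it, and in 5.30%, 6.92%, 2.29% and 6.90% of B-gated cells. At 2000 UMIs a cell these shares were 1.39%, 0.952%, 0.110% and 1.82% against 3.02%, 4.55%, 1.15% and 2.29%. The miR-146a-/- library, with the fewest plasma-gated cells, had the lowest share in both classes. Some high values of other classes came from single cells. A T-class cell held 1314 of the 1329 Ighg3 UMIs found outside the gates in young WT mice. A monocyte-class cell held 672 of the 836 Ighg2b UMIs found there in DKO mice. In DEN-CDHFD–treated WT mice 1 T-class cell had both 960 Ighm and 1838 Jchain UMIs. No doublet caller was run, and whether such droplets held more than 1 cell was not tested.

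Receptors for the antibodies made by these genes were read in the same classes. Fcmr, for IgM, stood at 631, 542, 676 and 671 CPM in B-gated cells and at 40.7, 120, 121 and 34.9 in plasma-gated cells. Fcmr is among the markers of the B gate, so its level in B-gated cells is partly set by the gate. Fcer2a, for IgE, stood at 411, 271, 175 and 245 CPM in B-gated cells and at 0 in plasma-gated cells of all 4 libraries. Fcgr2b, the inhibitory IgG receptor, stood at 137, 151, 205 and 153 CPM in B-gated cells and at 274, 213, 157 and 173 in monocytes and macrophages. Fcgr4, an activating IgG receptor, stood at 84.0, 66.5, 147 and 384 CPM in monocytes and macrophages and was highest there in the DKO library, where it also stood at 135 CPM in T cells and 27.4 CPM in B-gated cells. Pigr, the epithelial carrier of polymeric IgA and IgM, was at most 3.11 CPM in B-gated cells.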

How the data were processed

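Gene-by-cell matrices of 4 libraries, 1 for each group, were used as the authors deposited them. Their values are raw counts, 1 UMI each, not normalized. The submitters' processing notes name Cell Ranger 7.0.1 and mm10, and the published methods name another Cell Ranger version. Whether intronic reads were counted is not given in the sources used here, and this can affect the UMIs of the constant genes. The limits on cells were 600 and 6000 features and 5% for the mitochondrial part of the UMIs. The 10 members and all gene lists were chosen with earlier results of these data known. Cells were classed by lists of 8 markers that hold no immunoglobulin gene, with B at 3 or more and above every other list. Plasma was set at 4 or more including Mzb1, no fewer than of any other cell-type list, and at most 2 pDC markers. Raw UMIs were summed by library and class and divided by the class total (CPM). Genes of at least 50 CPM in either library were compared, with a prior of 0.5 UMIs and 2-fold as the call. Heavy and light chains were assigned at 3 or more UMIs, light chains by the larger of kappa and lambda. Shares have exact Clopper-Pearson intervals, their differences Newcombe intervals, levels exact Poisson intervals and log2 ratios conditional binomial intervals, all at 95% and for counting error only. No doublet caller was run; leaving out cells with 2 or more Cd3 UMIs was an alternative. The other alternatives changed marker minimums, cell limits, assignment minimums, depth (thinning to 2000 UMIs), scaling (TMM in edgeR 4.0.16, or UMIs outside immunoglobulin genes), the prior and the CPM minimum. A further 4 were chosen after seeing the data: light chains from variable segments, other classes without B-cell or plasma-cell markers, and the counts of plasma-marked and of Jchain-high cells among all deposited cells. Ighe, Iglc1 and Iglc3 were named as neighbors of the members, and for each list up to 4 genes with the most UMIs could be named by rule. The code was tested on simulated data. Python 3.11.15, pandas 2.3.3, scipy 1.17.1 and R 4.3.3 were used. Results of some genes on the lists are not reported here.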

Additional observations from a re-analysis of the deposited data

Results flagged for a closer look

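A signal lay in cells that the comparisons leave out. In the DEN-CDHFD–treated WT library 62.8% of all Igha UMIs (361 of 575) were in cells outside the limits on features and mitochondrial UMIs, and 1 such cell held 317 of them. The corresponding shares of Igha were 40.9% in young WT mice, 2.59% in the miR-146a-/- library and 6.77% in the DKO library. Jchain had 28.0% of its UMIs outside the limits in DEN-CDHFD–treated WT mice, against 10.0%, 6.78% and 0.356% in the young WT, miR-146a-/- and DKO libraries. For comparison, the cells outside the limits held 7.57%, 18.4%, 10.4% and 6.20% of all deposited UMIs in young WT, DEN-CDHFD–treated WT, then miR-146a-/- and then DKO mice. Whether these droplets held more than 1 cell was not tested.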

How the results depend on the processing

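Without cells with 2 or more Cd3 UMIs, which also takes T cells out of the total, the differences in B-gated share were -8.80 points (DEN-CDHFD–treated minus young WT), -6.83 (miR-146a-/- minus DEN-CDHFD–treated WT) and -1.37 (DKO minus miR-146a-/-), the last reversed. With all deposited cells of 4 plasma-cell markers the differences in plasma share were 0.320 (from -0.0756, its sign turned), -0.620 and 0.0488 points, and the share with 50 Jchain UMIs differed by -0.404 points between miR-146a-/- and DEN-CDHFD–treated WT mice. With at least 200 features and no upper limit the switched share differed by 4.62 points (DEN-CDHFD–treated minus young WT) and -1.13 (miR-146a-/- minus DEN-CDHFD–treated WT). By variable segments the lambda share of DEN-CDHFD–treated WT minus young WT mice reversed to 1.24 points. The log2 ratio of Jchain in B-gated cells between these libraries reversed to 0.43 as a mean of per-cell CPM and to 1.05 without the highest cell. At a minimum of 10 CPM, 189, 349 and 156 genes passed 2-fold in place of 40, 105 and 50, since more genes were tested. The causes of the other shifts were not tested. Of 210 alternative values of the members' log2 ratios, 189 stayed within their counting interval, 19 moved and 2 reversed. Shares of a member's UMIs in its 10 highest cells moved in 60 of 80 alternatives and shares outside the gates in 39 of 80. Of 24 for the difference in switched share 22 stayed and 2 moved, 1 of them (miR-146a-/- minus DEN-CDHFD–treated WT, 2.55 to -1.13 points) with its sign turned. The number of cells limits the plasma-gated shares, with 13 to 45 cells a library. No paired analysis was possible because each group is 1 library, and for the same reason no library could be left out.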

Other observations

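Over 26 sums of cells (classes of at least 50 cells in a library, so that plasma-gated cells are not among them), the genes outside the immunoglobulin loci with the pattern most like Ighm on the log2(CPM + 1) scale were Pml (Pearson r = 0.95), Dmxl1 (0.94), Snx29 (0.94), Rubcn (0.94) and Tnfrsf13c (0.93), the receptor for the B-cell survival factor BAFF. For Jchain they were Pxdc1 (0.79), Mif4gd (0.75), Tbc1d1 (0.75), Rapgef4 (0.74) and Dap3 (0.74), and for Igha they were Ift140 (0.74), Scd1 (0.71), Ap1m1 (0.70), Snx2 (0.69) and Swap70 (0.68). These values describe sums that share libraries and depth. Iglc1, the third lambda constant gene, stood at 161, 188, 337 and 228 CPM in B-gated cells of young WT, DEN-CDHFD–treated WT, then miR-146a-/- and then DKO mice, and its log2 difference between miR-146a-/- and DEN-CDHFD–treated WT mice was 0.84.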
